A study of Homo sapiens with 16 samples.

Results

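Integrins and laminins form both sides of the contact between an epithelial cell and its basement membrane, and the 36 genes described here encode 17 integrin alpha chains, 8 integrin beta chains, 5 laminin alpha chains, 4 laminin beta chains and 2 laminin gamma chains. They were chosen by gene symbol, not by any measured value, and all 36 were found among the 58735 genes of the count table. The genes were followed in 16 RNA-seq libraries of 4 established human breast cancer cell lines, with 2 libraries in each of 8 groups. HCC1806 was sampled as a monolayer and as spheroids at day 10 and day 20. BT474 was sampled in the same 3 ways. For CAL148 and ZR-75-30 only monolayers were sequenced. HCC1806 and ZR-75-30 were grown in RPMI medium and BT474 and CAL148 in DMEM, both with 10% fetal bovine serum, so line and medium cannot be told apart between those pairs. No agent was given to any group. The culture form was read from the sample titles, because the treatment label names a monolayer for all 16 libraries. The labels do not say whether the 2 replicates of a group came from separate cultures, so every p-value measures only the spread between these samples, which may be technical.

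A laminin is a trimer of 1 alpha, 1 beta and 1 gamma chain that assembles in the secretory pathway and polymerises into the sheet on which epithelial cells sit. An integrin is a membrane receptor of 1 alpha and 1 beta chain: α6β4, α6β1, α3β1 and α7β1 bind laminins, α1, α2, α10 and α11 pair with β1 to bind collagens, and αV pairs with β1, β3, β5, β6 or β8 to bind matrix proteins that carry an RGD motif. In breast epithelium α6β4 anchors basal cells to laminin through hemidesmosomes, the junctions that tie keratin filaments to the basement membrane. Since the chains work as pairs or trimers, the level of a transcript does not give the amount of complex at the surface.

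Depth was ample for most of the family: library totals ran from 29.7 to 72.5 M counts, and a floor of 3 counts equalled 0.0458 to 0.139 CPM (TMM-scaled counts over the library total). Levels of different genes are set beside each other only as CPM per kilobase of exon, written CPM/kb. The epithelial marker genes, all 6 of them, stood above 1 CPM in every group. The 2 HCC1806 monolayer libraries stood apart from each other, with a mitochondrial share of counts of 14.9% in replicate 1 and 0.559% in replicate 2. In ZR-75-30 this share was 1.60% in replicate 1 and 17.7% in replicate 2, the highest of the 16 libraries. Its part in the ZR-75-30 levels given below was not tested. Over the members, the SD of the log2 difference between the 2 replicates was 1.78 in the HCC1806 monolayers, 0.943 in CAL148, 0.760 in ZR-75-30 and 0.200 to 0.314 in the other 5 groups. Member counts that rest on the HCC1806 monolayers are therefore also given against each of these libraries alone.

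Of the 36 genes, 22 reached 1 CPM in both libraries of the HCC1806 monolayers, 24 at day 10 and 25 at day 20, against 17, 19 and 18 in BT474 and 17 each in CAL148 and ZR-75-30. ITGB3, the β3 chain of platelets and osteoclasts, had 7 counts over all 16 libraries. ITGA8, the α8 chain that pairs with β1, was detected in BT474 alone, at 0.0245 and 0.0953 CPM in the monolayers, 0.443 and 0.183 at day 10 and 0.216 and 0.0793 at day 20. ITGAX, an alpha chain of myeloid cells, was detected in HCC1806 alone and at 0.0688 CPM/kb at most. LAMA1, the alpha chain of the earliest embryonic basement membranes, had counts in the HCC1806 spheroids alone, 12 and 10 at day 10 and 2 and 6 at day 20. ITGA8, ITGA11 and ITGB3 were too low to be tested in any comparison.

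Among the laminin beta chains, LAMB3 had the highest level per kilobase in every HCC1806 library and LAMB2 in every library of the other 3 lines. LAMB3, the beta chain of the laminin that anchors hemidesmosomes, stood at 181 and 214 CPM/kb in the HCC1806 monolayers, 280 and 252 at day 10 and 249 and 220 at day 20. Its level was 1.57 and 0.915 CPM/kb in the BT474 monolayers, 2.35 and 2.6 at day 10, 2.53 and 2.10 at day 20, 0.332 and 0.410 in CAL148 and 1.63 and 3.72 in ZR-75-30. No library of another line came near the lowest HCC1806 library, and the top and bottom groups were 717-fold apart in mean level. LAMB2, the beta chain of mature basement membranes of muscle, nerve and kidney, had its highest level in ZR-75-30, at 76.5 and 78.7 CPM/kb. It stood at 18.5 and 15.9 CPM/kb in the BT474 monolayers, 14.3 and 9.22 in CAL148 and 9.38 and 9.82 in the HCC1806 monolayers. LAMB1, the widely expressed beta chain, covered a narrower span: BT474 monolayers had 13.7 and 10.6 CPM/kb, CAL148 2.14 and 2.71, ZR-75-30 11 and 3.39 and HCC1806 monolayers 3.97 and 25.0. For LAMB1, 5 of the 7 neighbouring groups in the order of means overlapped. LAMB4, a little-studied beta chain, was at 0.875 CPM/kb in HCC1806 monolayer replicate 1 and at 0 in replicate 2.

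As a share of the summed beta chain level per kilobase, LAMB3 made up 86.0% to 92.7% in all 6 HCC1806 libraries. LAMB2 made up 85.2% and 74.7% in CAL148 and 85.9% and 91.7% in ZR-75-30. In the BT474 monolayers LAMB2 and LAMB1 were both large, at 54.7% and 57.9% for LAMB2 and 40.7% and 38.7% for LAMB1. The plot of laminin and integrin beta chain shares sets the 16 libraries side by side.

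**Figure D1:**
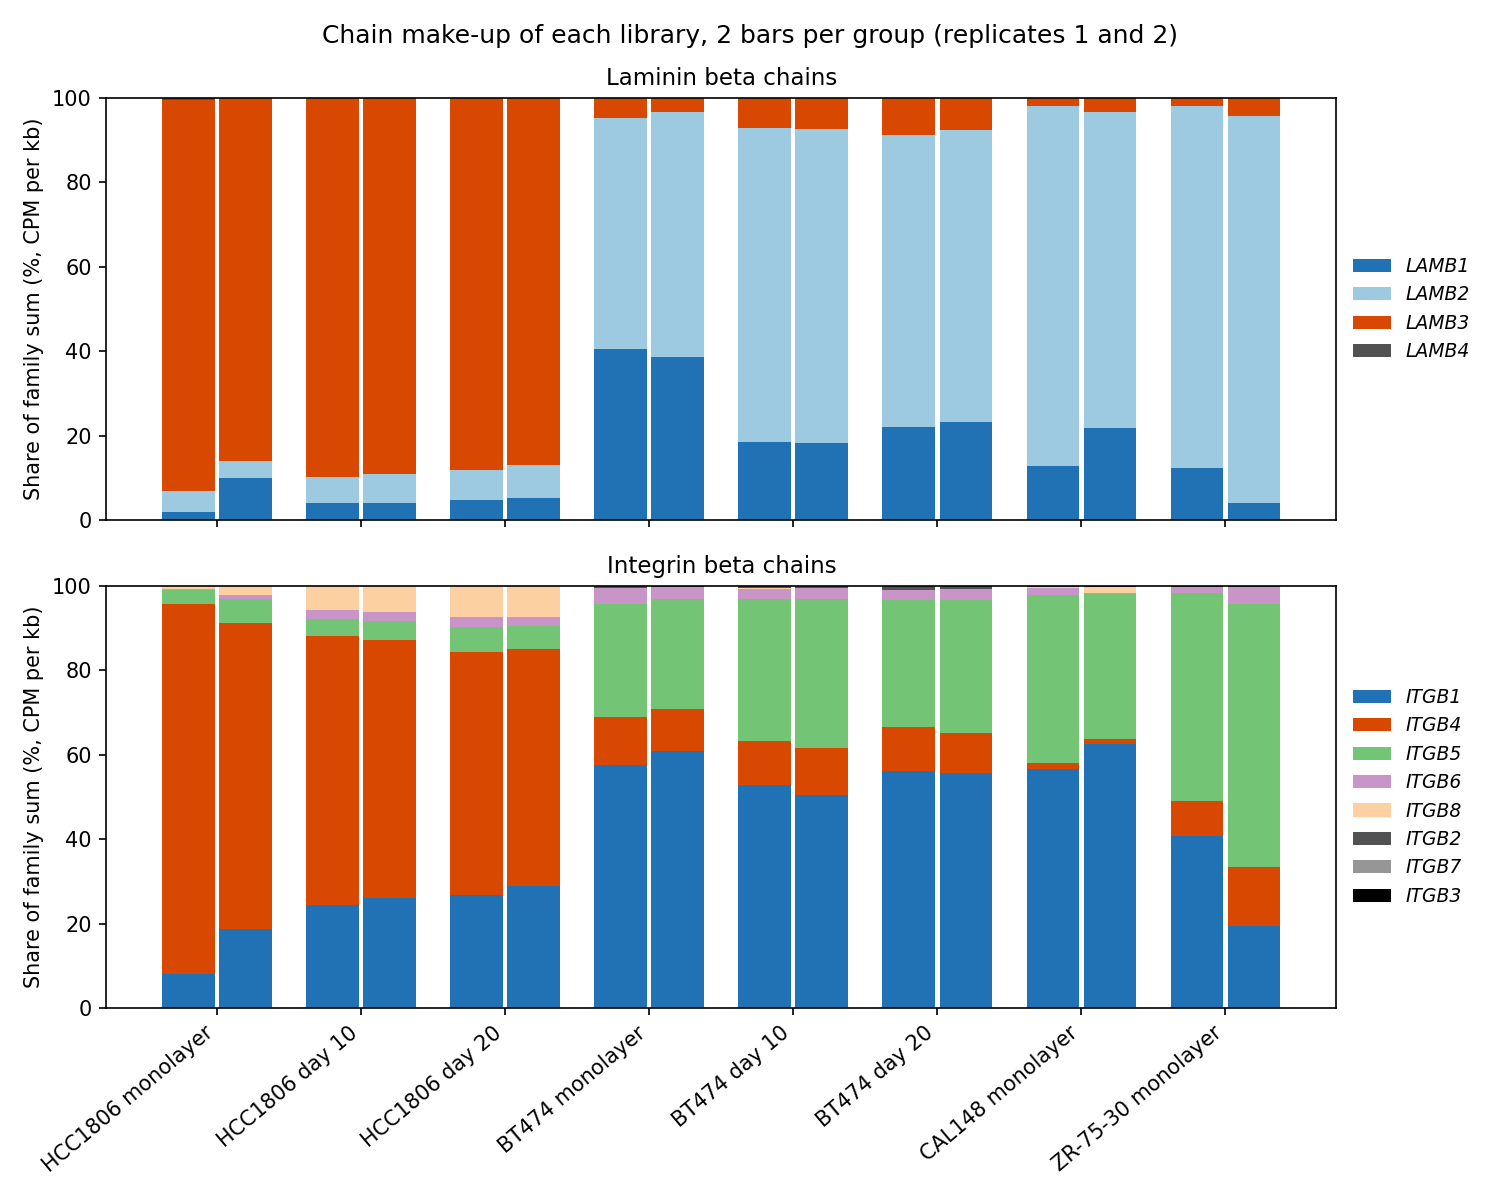
Each stacked bar is 1 of the 16 libraries, and its colours give the percent of the summed CPM per kilobase held by each laminin beta chain (4 genes) or integrin beta chain (8 genes). LAMB3 holds 86.0% or more in the 6 HCC1806 libraries, LAMB1 shrinks from 40.7% and 38.7% in the BT474 monolayers to 18.6% and 18.4% at day 10, and ITGB4 leads the integrin beta chains in HCC1806 alone.

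Among the laminin alpha chains, LAMA5, the main alpha chain of adult epithelial basement membranes, led in every library. It stood at 50.8 and 53.4 CPM/kb in the HCC1806 monolayers, 58.9 and 53.4 at day 10, 66.5 and 61.8 at day 20, 11.9 and 9.63 in the BT474 monolayers, 12.4 and 12.6 in CAL148 and 7.22 and 5.26 in ZR-75-30. LAMA5 held at least 93.6% of the alpha chain sum in BT474, CAL148 and ZR-75-30. In HCC1806 its share was 95.8% in monolayer replicate 1, within the range of the other lines, and lower in the other 5 libraries, at 67.3% in monolayer replicate 2, 74.6% and 74.4% at day 10 and 80.2% and 83.1% at day 20. The rest came mainly from 2 chains. LAMA3, the alpha chain that joins LAMB3 at hemidesmosomes, stood at 1.46 and 20.8 CPM/kb in the HCC1806 monolayers, 6.24 and 5.49 at day 10 and 6.73 and 4.79 at day 20. LAMA4, an alpha chain of vessel walls and mesenchymal tissue, stood at 0.550 and 5.11, then 13.7 and 12.7, then 9.59 and 7.65 CPM/kb in the same order, and at 0.0457 or less in every library of the other lines. LAMA3 in CAL148 had 0 and 0.0162 CPM/kb, and in ZR-75-30 0.0624 and 0.0822. LAMA2, the alpha chain of muscle basement membrane, ranged from 0.105 to 0.195 CPM/kb in HCC1806. Of the gamma chains, LAMC1, the partner in most laminins, stood at 14.9 and 107 CPM/kb in the HCC1806 monolayers, 64.5 and 56.4 at day 10 and 53.5 and 49.0 at day 20, with 11.2 and 11.5 in the BT474 monolayers, 13 and 8.85 in CAL148 and 2.30 and 1.23 in ZR-75-30. LAMC3, the rarer gamma chain, reached 1.07 CPM/kb in HCC1806 monolayer replicate 1 and 0.176 in replicate 2.

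The laminin-binding integrin chains ITGA6, ITGB4 and ITGA3 had their highest group means in HCC1806, and the order of the other lines differed between them. ITGA6 encodes α6, the chain that pairs with β4 or β1. Its level was 28.8 and 171 CPM/kb in the HCC1806 monolayers, 156 and 152 at day 10 and 195 and 182 at day 20, against 3.73 and 4.55 in the BT474 monolayers, 13.9 and 3.71 in CAL148 and 9.0 and 2.96 in ZR-75-30. ITGB4, whose long cytoplasmic tail recruits plectin to the hemidesmosome, stood at 149 and 242, then 158 and 142, then 126 and 109 CPM/kb in the same HCC1806 groups. The other lines had 11.5 and 9.50 (BT474 monolayers), 1.68 and 0.838 (CAL148) and 14.9 and 15.8 CPM/kb (ZR-75-30). Both chains were thus highest in HCC1806, although for ITGA6 its monolayer replicate 1 was nearer to CAL148 than to its own replicate 2. ITGA3, which pairs with β1 to bind laminins that hold LAMA3 or LAMA5, was the leading alpha chain of BT474, with 51.7% to 67.5% of the alpha chain sum in its 6 libraries. ITGA3 stood at 31.6 and 19.9 CPM/kb in the BT474 monolayers, 20.2 and 63.1 in the HCC1806 monolayers, 3.17 and 2.83 in CAL148 and 6.94 and 5.43 in ZR-75-30. ITGA7, the laminin receptor chain of muscle, was low throughout, with 0.919 CPM/kb as its highest value, in an HCC1806 day 20 library.

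Pairing the chains shows where the 2 partners were unequal. The ratio of ITGA6 to ITGB4 per kilobase was 0.194 and 0.706 in the HCC1806 monolayers, 0.991 and 1.07 at day 10 and 1.55 and 1.68 at day 20. It lay between 0.324 and 0.479 in the 6 BT474 libraries and at 8.29 and 4.42 in CAL148, where ITGB4 was scarce. ITGB4 held 87.6% and 72.4% of the integrin beta chain sum in the HCC1806 monolayers, 63.6% and 61.1% at day 10 and 57.7% and 56.3% at day 20. In CAL148 it held 1.48% and 1.02%. For ITGB1, the shared partner of most alpha chains, the highest and lowest group means were 1.59-fold apart, a span narrower only for ITGAE (1.53-fold), and 6 of the 7 neighbouring groups overlapped. Its levels were 13.7 and 62.5 CPM/kb in the HCC1806 monolayers, 57.1 and 58.7 in the BT474 monolayers, 64.2 and 51.3 in CAL148 and 73.3 and 22.2 in ZR-75-30.

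**Figure D2:**
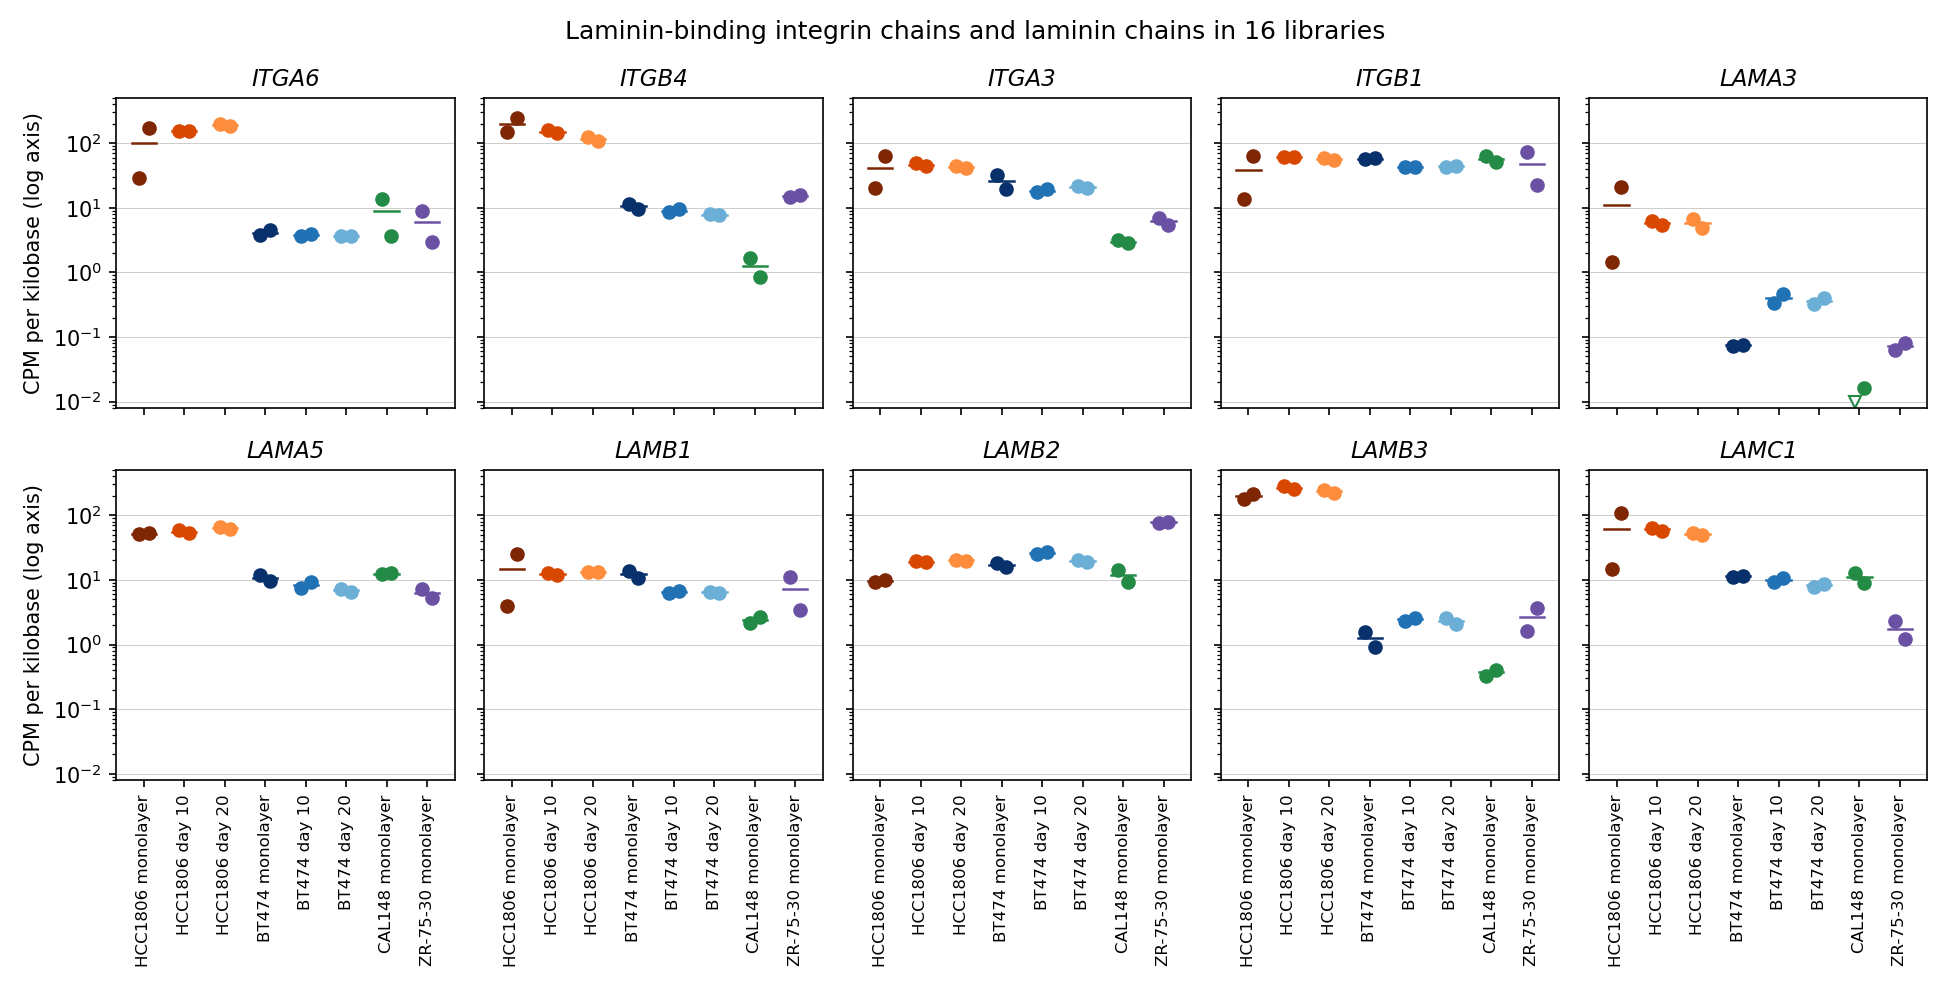
CPM per kilobase on a log axis for 10 laminin and laminin receptor genes in the 8 groups, with a point for each library and a bar for the group mean; an open triangle marks a library with 0 counts. ITGB4, LAMB3, LAMA5 and ITGA6 separate HCC1806 from the other lines, whereas ITGB1 lies within 13.7 to 73.3 CPM/kb in all 16 libraries.

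The other receptor classes divided between the lines as well. ITGB5, an αV partner that binds vitronectin, led the beta chains of ZR-75-30 at 88.2 and 71.2 CPM/kb, with 45.3 and 28.2 in CAL148, 26.5 and 25.1 in the BT474 monolayers and 5.70 and 19.6 in the HCC1806 monolayers. ITGAV, the αV chain itself, lay between 2.75 and 9.07 CPM/kb in BT474, CAL148 and ZR-75-30. In HCC1806 it stood at 4.27 and 23.4, then 32.9 and 33.8, then 42.3 and 36.5 CPM/kb. ITGB8, an αV partner that binds latent TGF-β, stood at 1.00 and 6.89 CPM/kb in the HCC1806 monolayers, 13.9 and 14.4 at day 10 and 15.8 and 13.8 at day 20, and did not pass 0.0523 in BT474. ITGB6, another TGF-β-activating chain of epithelia, was present in all 4 lines at 0.213 to 5.39 CPM/kb. ITGA2, the epithelial collagen receptor chain, spanned 0.407 and 8.34 CPM/kb in the HCC1806 monolayers, 18.3 and 15.4 at day 10 and 32.1 and 18.5 at day 20, against 0.710 to 2.84 in the CAL148 and ZR-75-30 libraries. The collagen receptor chain ITGA10 was highest in ZR-75-30 (1.02 and 0.455 CPM/kb), ITGA11 did not pass 0.07 in any library, and ITGA1 reached 0.389 in HCC1806. ITGA5, the fibronectin receptor chain, stood at 2.85 and 6.65 CPM/kb in the HCC1806 monolayers and 1.82 and 2.42 in ZR-75-30, and at 0.346 or less in BT474 and CAL148. ITGAE, known for its part in holding T cells to epithelium, lay between 1.33 and 3.42 CPM/kb in all 16 libraries; 6.41% of its exon bases overlap HASPIN. ITGA2B, ITGA4, ITGAL, ITGAM, ITGB2 and ITGB7, best known from platelets and leukocytes, each stayed below 2 CPM/kb, as did ITGA9.

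Whether the 4 lines differed as monolayers was tested with 1 F test per gene over the 8 monolayer libraries (edgeR's quasi-likelihood test, Benjamini-Hochberg adjustment, called below 0.05). Of the 27 members tested, 17 were called, beside 33.9% of all 19594 genes tested. The smallest adjusted p-values belonged to LAMB3 (8.90e-04), ITGB4 (0.00109), LAMA5 (0.00239), LAMB2 (0.00245), ITGA5 (0.00281), LAMA3 (0.00478) and ITGA3 (0.00697). The other 10 called members were ITGA1, ITGA2B, ITGA6, ITGAL, ITGB5, ITGB8, LAMA2, LAMA4, LAMC1 and LAMC3. ITGB1 (adjusted p = 0.886), ITGAV (0.391) and LAMB1 (0.141) were among the 10 not called. ITGA3, ITGA5, ITGB4, LAMA5, LAMB2 and LAMB3 were called under every alternative run, and leaving out a library gave 12 to 19 called members.

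HCC1806 and BT474 spheroids of the same day were compared directly, which leaves the discordant monolayers out. At day 10, 25 members were higher in HCC1806 and 5 lower of 33 tested, beside 70.7% of all 20606 genes called in either direction, 37.5% higher and 33.2% lower. At day 20 the counts were 26 higher and 3 lower, beside 71.3% of all genes called, 37.7% higher and 33.6% lower. The median log2 fold change of HCC1806 over BT474 was 2.86 at day 10 and 3.40 at day 20 over the members, and 0.08 and 0.09 over all genes tested. ITGA4, ITGAX and LAMA1 had 0 counts in every BT474 group, so only the HCC1806 spheroids brought them past the count filter. They could come out only as higher in HCC1806, and they are among the members tested and in the medians. Line and medium cannot be told apart here.

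The laminin side of this contrast held LAMB3 with log2 fold changes of 6.87 at day 10 and 6.74 at day 20, LAMA4 with 8.60 and 8.12, LAMA3 with 3.97 and 4.06, LAMA5 with 2.86 and 3.28, LAMC1 with 2.72 and 2.71 and LAMB1 with 1.05 and 1.12. LAMB2 went the other way at day 10, with a log2 fold change of -0.32 (adjusted p = 0.00202, edgeR), and was not called at day 20 (0.12, adjusted p = 0.180). On the receptor side ITGA6 had log2 fold changes of 5.46 and 5.77, ITGB4 4.18 and 3.98, ITGB8 9.14 and 8.38, ITGA5 5.19 and 4.96, ITGA2 4.11 and 4.95, ITGAV 2.16 and 2.42 and ITGA3 1.46 and 1.12. ITGB1 differed least among the called integrin beta chains, at 0.61 and 0.45. The members called lower in HCC1806 at both days were ITGB5 (-1.37 and -1.02), ITGB2, the common beta chain of leukocyte integrins (-1.89 and -2.20), and ITGAL, its partner in the ICAM receptor. ITGAL had 181 counts in the day 10 BT474 spheroids and 2 in those of HCC1806, a ratio of 71.4 after scaling (exact 95% interval 19.5 to 594, counting error only). At day 20 it had 124 and 0 counts, at least 45.7-fold lower in HCC1806 with a floor of 3 counts over the group. ITGA4, an α4 chain that binds VCAM1 and fibronectin, had 137 and 166 counts in HCC1806 spheroids and 0 in those of BT474, at least 57.9-fold and 50.04-fold higher. Of these calls, 20 at day 10 and 19 at day 20 held under every alternative run, LAMB3, LAMA3, LAMA4, LAMA5, LAMC1, ITGA6, ITGB4 and ITGB8 among them at both days.

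The 5 basal or squamous marker genes summed to 3882 to 8043 CPM in the HCC1806 libraries and to at most 4.95 CPM in those of the other lines, so the hemidesmosome chains moved with them, and the part of cell type in the difference was not tested. In a list of 9 hemidesmosome and laminin-linked membrane genes, 5 were called higher and 2 lower in HCC1806 at day 10, and 5 and 3 at day 20. COL17A1, the hemidesmosomal collagen, had log2 fold changes of 5.95 and 5.24. All 13 tested genes of a basement membrane list of 14 were called higher in HCC1806 at both days. The 20 focal adhesion genes gave 9 higher and 6 lower at day 10 and 10 and 7 at day 20, with FERMT1, the epithelial kindlin that activates integrins, at 7.55 and 7.25.

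In BT474 spheroids some laminin chains rose and others fell. At day 10, 4 members were called higher (LAMA3, LAMB2, LAMB3 and ITGAL) and 4 lower (LAMB1, LAMA5, ITGB1 and ITGB6) of 33 tested, 24.2% of the members beside 12.2% of all genes tested (6.58% higher and 5.67% lower). At day 20, 4 were higher (LAMA3, LAMB3, ITGAL and ITGB8) and 7 lower (LAMB1, LAMA5, LAMC1, ITGB1, ITGB4, ITGB6 and ITGA9), 33.3% beside 14.6% (7.4% higher and 7.24% lower). The median log2 fold change of the members was -0.03 at day 10 and -0.09 at day 20, and 0 over all genes. In bulk RNA, more cells with a transcript and more transcript per cell cannot be told apart, here and below. The mitochondrial share of counts also moved with culture form, from 1.91% and 1.88% to 4.58% and 3.04% at day 10 and 5.20% and 4.08% at day 20, and its part in these differences was not tested.

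LAMB1 stood at 112 and 86.2 CPM in the monolayers, 51.3 and 54.0 at day 10 and 52.2 and 51.9 at day 20. Every spheroid library lay below both monolayers, and LAMB1 fell by 0.96 ± 0.10 (SE) on the log2 scale at day 10 (adjusted p = 4.39e-05, edgeR) and by 0.91 ± 0.10 at day 20 (adjusted p = 5.67e-05). LAMB2 stood at 127 and 109 CPM, then 173 and 185, then 139 and 130. It rose by 0.55 ± 0.08 at day 10 (adjusted p = 0.000432), and at day 20 its log2 fold change of 0.20 was not called (adjusted p = 0.101). LAMB3 stood at 7.35 and 4.29 CPM, then 11 and 12.2, then 11.9 and 9.83, and rose by 0.95 ± 0.20 (adjusted p = 0.0151) and 0.91 ± 0.20 (adjusted p = 0.0177). The call for LAMB3 was lost at day 10 without day 10 replicate 1 or 2 (adjusted p = 0.0846 and 0.119), and at day 20 without day 20 replicate 1 (0.106). The ratio of LAMB2 to LAMB1 per kilobase went from 1.35 and 1.5 in the monolayers to 3.99 and 4.05 at day 10 and 3.15 and 2.98 at day 20, with no overlap between monolayers and spheroids. The summed beta chain level per kilobase was 33.76 and 27.37 CPM/kb in the monolayers. At day 10 it was 33.85 and 36.17, just above both monolayers, and at day 20 it was 29.16 and 27.47, which overlapped them.

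LAMA3 rose most among the laminin chains of BT474. It stood at 1.08 and 1.10 CPM in the monolayers, 5.00 and 6.92 at day 10 and 4.75 and 5.95 at day 20, and every spheroid library was above 4 times the monolayer level. Its log2 fold changes were 2.41 ± 0.24 (adjusted p = 4.30e-05) and 2.31 ± 0.24 (adjusted p = 6.49e-05). LAMA5 fell by 0.40 ± 0.10 at day 10 (adjusted p = 0.0163) and by 0.61 ± 0.10 at day 20 (adjusted p = 0.00105), from 170 and 138 CPM to 109 and 132 and then 105 and 94.5. Even so, LAMA5 remained the leading alpha chain, and the share of LAMA3 in the alpha chain sum went from 0.614% and 0.767% to 4.27% and 4.83% at day 10 and 4.22% and 5.74% at day 20. LAMC1 stood at 93.8 and 96.7 CPM, then 77.3 and 91.0, then 65.7 and 72.9. It fell by 0.45 ± 0.09 at day 20 (adjusted p = 0.00423), and its difference of -0.23 at day 10 was not called (adjusted p = 0.110).

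To show what lies before these 4 laminin genes, which moved apart in BT474, the stretch before an annotated transcript start is printed for each from the RefSeq table (GRCh38.p14), 5′ to 3′ on the gene's strand, with capitals marking the GC box GGGCGG on either strand. LAMA3 lies at chr18:23689443-23956222 on the plus strand, and the RefSeq start used here is an internal one, 183577 bases inside the gene span of the count table. An annotated exon begins before that start, so the printed LAMA3 stretch has 70 bases and ends short of the RefSeq start. LAMB3 lies at chr1:209614870-209652466, LAMB1 at chr7:107923799-108003255 and LAMB2 at chr3:49121114-49133118, all on the minus strand.
LAMA3, chr18:23872770-23872839: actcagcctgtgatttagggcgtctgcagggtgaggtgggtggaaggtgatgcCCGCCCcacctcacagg
LAMB3, chr1:209652467-209652675: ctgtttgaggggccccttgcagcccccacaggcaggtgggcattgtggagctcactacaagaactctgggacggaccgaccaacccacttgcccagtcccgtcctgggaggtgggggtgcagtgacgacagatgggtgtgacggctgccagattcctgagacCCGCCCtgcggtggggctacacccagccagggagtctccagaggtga
LAMB1, chr7:108003256-108003411: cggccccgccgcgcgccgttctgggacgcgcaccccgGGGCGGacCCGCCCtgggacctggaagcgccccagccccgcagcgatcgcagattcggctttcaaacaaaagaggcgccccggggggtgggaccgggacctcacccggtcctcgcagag
LAMB2, chr3:49133119-49133300: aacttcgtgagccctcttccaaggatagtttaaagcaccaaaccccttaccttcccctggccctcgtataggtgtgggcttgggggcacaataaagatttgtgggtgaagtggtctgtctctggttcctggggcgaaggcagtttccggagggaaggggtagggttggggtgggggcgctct
The G+C content of these stretches was 62.9%, 64.6%, 75.0% and 56.6% in that order. In the full window of 300 bases around each RefSeq start, the GC box occurred 4 times for LAMB1, where 2 of the matches overlap each other, and 1 time each for LAMA3, LAMB3 and LAMB2. It occurred in 45% of all 35116 windows of that length and in 19 of the 33 windows of members, which belong to 14 of the 26 members with a window. For LAMB3, which has 3 windows, the window listed first was used for the matches of that gene. The AP-1 motif TGANTCA, read on both strands, occurred 2 times for LAMA3, with first bases at -125 and -69 from the RefSeq start, and in none of the other 3 windows. Both LAMA3 matches lie beyond the printed stretch, past the start of an annotated exon. The AP-1 motif occurred in 7.71% of all windows and in 3 of the 33 windows of members, which belong to 3 of the 26 members. The TEAD motif GGAATG and the hypoxia-response core ACGTG, in 14% and 21.4% of all windows, occurred in none of the 4. A match is a run of letters and no evidence of binding. Windows were matched for 26 of the 36 members; ITGA3, ITGA7, ITGA9, ITGAL, ITGAX, ITGB2, ITGB3, ITGB4, LAMA1 and LAMC3 had none.

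Among the BT474 receptors, ITGB1 fell. It stood at 343 and 353 CPM in the monolayers, 262 and 259 at day 10 and 260 and 267 at day 20, with no overlap, and its log2 fold changes were -0.47 ± 0.07 (adjusted p = 0.000611) and -0.39 ± 0.07 (adjusted p = 0.0019). Its laminin-binding partner ITGA3, at 31.6 and 19.9 CPM/kb before and 17.3 and 19.7 at day 10, had log2 fold changes of -0.53 (adjusted p = 0.0800) and -0.28 (adjusted p = 0.333) and was not called. ITGB4 stood at 77.9 and 64.2 CPM, then 58.0 and 64.0, then 54.0 and 51.6, and fell by 0.42 ± 0.10 at day 20 (adjusted p = 0.0104). Its partner ITGA6, with log2 fold changes of -0.17 and -0.18 (adjusted p = 0.253 and 0.220), was not called. ITGB6 stood at 18.1 and 12.4 CPM, then 9.26 and 10.3, then 8.59 and 10.2. It fell by 0.69 ± 0.17 at day 10 (adjusted p = 0.0174) and by 0.68 ± 0.17 at day 20 (adjusted p = 0.0166), while its partner ITGAV had log2 fold changes of -0.03 and -0.04. ITGB1, ITGB4 and ITGB6 were thus called while ITGA3, ITGA6 and ITGAV were not, and no test of the difference within a pair was run.

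At lower levels, ITGAL went from 0.343 and 0.238 CPM to 1.43 and 1.88 at day 10 and 1.35 and 1.96 at day 20, with log2 fold changes of 2.45 ± 0.52 (adjusted p = 0.00788) and 2.51 ± 0.52 (adjusted p = 0.00653). Its partner ITGB2 was not called. The 9 leukocyte marker genes summed to 0.334 and 0.612 CPM in the monolayers, 15.9 to 20.5 at day 10 and 24.6 to 25.2 at day 20, most of it LYZ (group means of 18.1 and 24.9 CPM in the spheroids), with PTPRC and CD3D at 0 counts in all 6 BT474 libraries. ITGA9, an α9 chain that pairs with β1, stood at 1.47 and 1.64 CPM, 1.01 and 0.703, and 0.432 and 0.502, and fell by 1.72 ± 0.44 at day 20 (adjusted p = 0.0188). ITGB8 rose by 0.88 ± 0.26 at day 20 (adjusted p = 0.0402) from 0.441 and 0.334 CPM to 0.621 and 0.793.

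**Figure D3:**
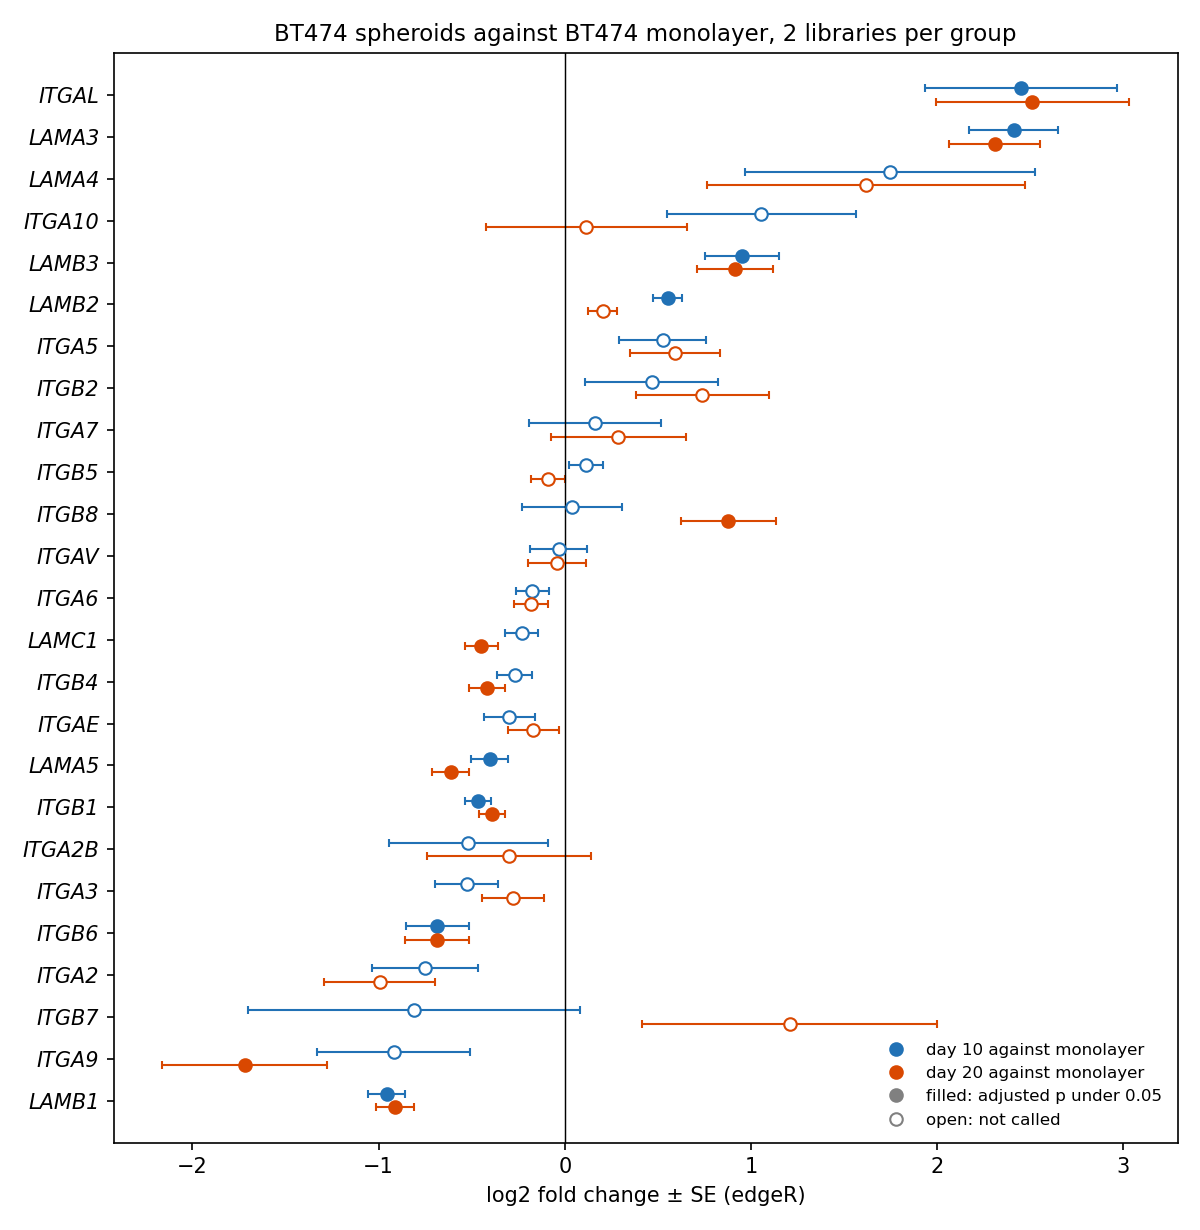
Log2 fold change of BT474 spheroids over monolayers with its standard error for 25 members, at day 10 (blue) and day 20 (orange); filled points are called at an adjusted p below 0.05. LAMA3 and ITGAL lie beyond 2 at both days, LAMB1 lies near -0.9 and ITGB1 near -0.4.

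Each of the 4 libraries of a comparison was left out in turn, and the other libraries of the fit were kept. ITGB1, LAMA3, LAMB1 and LAMB2 stayed called throughout at day 10, and ITGB1, LAMA3, LAMA5 and LAMB1 at day 20. At day 10, LAMA5 was lost without monolayer replicate 1 (adjusted p = 0.0783) or day 10 replicate 1 (0.187), ITGAL without day 10 replicate 2 (0.0826) and ITGB6 without monolayer replicate 1, day 10 replicate 1 or day 10 replicate 2 (0.119, 0.118 and 0.109). At day 20, LAMC1 was lost without day 20 replicate 1 (0.0629), ITGB4 and ITGAL without day 20 replicate 2 (0.10 and 0.0660) and ITGB6 without monolayer replicate 1 or day 20 replicate 1 (0.113 and 0.141). ITGA9 and ITGB8 at day 20 were lost without monolayer replicate 2 (0.0627 and 0.213), day 20 replicate 1 (0.117 and 0.0588) or day 20 replicate 2 (0.0984 and 0.338). All BT474 calls were lost when the discordant HCC1806 monolayers entered the fit, in which 0 members were called at either day, and LAMA3 was also lost with limma on log2(FPKM + 1) (adjusted p = 0.209 and 0.217).

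Genes that act with these chains moved in BT474 too. Of 9 hemidesmosome and laminin-linked membrane genes, 2 were called higher and 2 lower at day 10, and 2 and 3 at day 20. COL17A1 rose by 2.08 ± 0.16 at day 10 (adjusted p = 7.89e-06) and 2.95 ± 0.16 at day 20 (adjusted p = 4.18e-07), while DST, the linker of hemidesmosomes to the cytoskeleton, fell by 0.87 at day 20. Of the 20 focal adhesion genes, 2 were called higher and 5 lower at day 10, and 2 and 7 at day 20, and FERMT1 fell by 2.77 ± 0.23 (adjusted p = 5.22e-06) and 2.33. Of the 13 basement membrane genes tested, 3 were called higher and 1 lower at day 10 and 4 and 0 at day 20. COL7A1, the anchoring fibril collagen that binds laminins of the LAMA3 chain, rose by 1.64 ± 0.12 (adjusted p = 1.52e-06) and 1.55. NTN4, a netrin that disrupts laminin networks, fell by 1.30 at day 10. Of the 15 tested genes for other integrin ligands, 1 was called higher and 2 lower at each day, with NPNT, a ligand of α8β1, at -1.24 at day 10.

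Between day 10 and day 20 of the BT474 spheroids, 0 of 33 members were called by edgeR's quasi-likelihood test, beside 0.281% of all genes. At an unadjusted p below 0.05 there were 6, and DESeq2 called 1, beside 1.32% of all genes. LAMB2 came nearest, with a log2 fold change of -0.35 (adjusted p = 0.0917).

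In HCC1806 the spheroids were set against a pair of monolayer libraries that disagreed over much of the family. Of the 22 members at 1 CPM or more in both, 14 were over 2-fold apart and 11 over 4-fold. ITGA2 was 20.5-fold lower in replicate 1, the library with a mitochondrial share of 14.9%, LAMA3 14.2-fold, LAMA4 9.28-fold, LAMC1 7.18-fold, ITGB8 6.87-fold, LAMB1 6.31-fold, ITGA6 5.94-fold and ITGB1 4.56-fold. LAMB2 and LAMA5 (1.05-fold each) and LAMB3 (1.18-fold) were close. The part of RNA quality in this gap was not tested.

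With both monolayers in the fit, 1 of 33 members was called at day 10, beside 8.72% of all 20929 genes tested (5.14% higher), and 3 at day 20, beside 11.1% (6.24% higher); all 4 calls were higher in spheroids. LAMB2 stood at 64.4 and 67.4 CPM in the monolayers, 133 and 129 at day 10 and 141 and 137 at day 20. It rose by 1.01 ± 0.14 on the log2 scale at day 10 (adjusted p = 0.00621, edgeR) and by 1.10 ± 0.14 at day 20 (adjusted p = 0.00365). ITGA1, a collagen receptor chain, rose by 2.44 ± 0.64 at day 20 (adjusted p = 0.0445), from 0.749 and 1.39 CPM to 7.23 and 4.19. At day 10 it stood at 3.99 and 4.27 CPM and was not called (1.97 ± 0.63, adjusted p = 0.0920). ITGAM, the αM chain of myeloid cells, had 2 counts over both monolayers, 51 at day 10 and 83 at day 20, a ratio of 19.1 (exact 95% interval 5.02 to 162) and 31.4 (8.43 to 264) after scaling; it was called at day 20 (adjusted p = 0.0268) and not at day 10 (0.0533). Its partner ITGB2 was not called. Both day 20 calls were lost without day 20 replicate 1 or 2, at adjusted p = 0.263 and 0.126 for ITGA1 and 0.121 and 0.12 for ITGAM.

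Other members lay apart from both monolayers without passing the test. At day 10, 12 members were above and 2 below both monolayers, beside 24.5% and 17.8% of all genes. Of the αV chains, ITGB8 had a log2 fold change of 1.90 ± 0.65 (adjusted p = 0.107), ITGB6 1.56 ± 0.59 (0.142) and ITGAV 1.32 ± 0.58 (0.193). LAMA4 had 2.28 ± 0.91 (0.156), ITGA2 2.01 ± 0.96 (0.223) and ITGA7 1.14 ± 0.45 (0.154). Beside LAMA4, the 8 fibroblast marker genes summed to between 23.7 and 48 CPM in the monolayers. Their sum was 66.1 and 66.2 CPM at day 10 and 81.5 and 96.1 at day 20. Of these genes 2, 1 and 0 were at 0 counts, and 3, 2 and 3 were above 1 CPM. The group mean of COL1A1 was 30.6 CPM in the monolayers and 77.1 at day 20. That of COL3A1 was 0.0695, 0.592 and 6.28 CPM. In the BT474 groups the same genes summed to 74.6 to 111 CPM, with LAMA4 at a mean of 0.445% or less of the alpha chain sum. The part of these markers in the LAMA4 level was not tested. LAMA1, with 22 counts against 0, was at least 5.49-fold higher (adjusted p = 0.0955), and ITGB7 had 1.47, with 42.1% of its exon bases overlapping ZNF740 on the other strand. At day 20 the log2 fold changes were 1.97 for ITGB8 (adjusted p = 0.0881), 2.6 for ITGA2 (0.125), 1.51 for ITGB6 (0.139), 1.67 for LAMA4 (0.262) and 1.63 for ITGA7 (0.0541).

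Against each monolayer alone the counts were larger and the signs partly opposite. A lone monolayer library is assumed to vary like the other groups. The 2 fits of a day also share their spheroid libraries. The share of all genes called against both monolayers, in the same or in opposite directions, was not computed. Member counts below that rest on both monolayers therefore have no background beside them and are not read as a trait of the members. Without replicate 1, 9 members were called higher and 7 lower at day 10, and without replicate 2, 18 and 3, beside 38.6% and 52.8% of all genes. At day 20 they were 10 and 6, and 20 and 2, beside 40.5% and 53%. In the same direction against both were 8 members at day 10 (ITGA1, ITGA2, ITGAE, ITGAM, ITGB6, ITGB8, LAMA4 and LAMB2) and 10 at day 20 (ITGA1, ITGA2, ITGA7, ITGAM, ITGAV, ITGB4, ITGB6, ITGB8, LAMA4 and LAMB2). All were higher in spheroids except ITGAE at day 10 and ITGB4 at day 20. In opposite directions at both days were 6: ITGA4, ITGB5, LAMA3, LAMB1, LAMB4 and LAMC1. At day 10 LAMA3 had a log2 fold change of -1.83 without replicate 1 and 1.99 without replicate 2, LAMC1 -0.83 and 2.00, LAMB1 -1.03 and 1.62, and ITGB5 -0.94 and 0.83. LAMB2 had 0.95 and 1.01, ITGA2 1.01 and 5.36, LAMA4 1.37 and 4.57 and ITGB8 1.03 and 3.80. For LAMB2, then, the choice of monolayer hardly moved the value, and for LAMA3, LAMC1 and LAMB1 it set the sign. The day 10 call for LAMB2 was lost without either day 10 library (adjusted p = 0.0664 and 0.0659) and in a fit of HCC1806 alone (0.181), where the day 20 call was lost too (0.144).

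**Figure D4:**
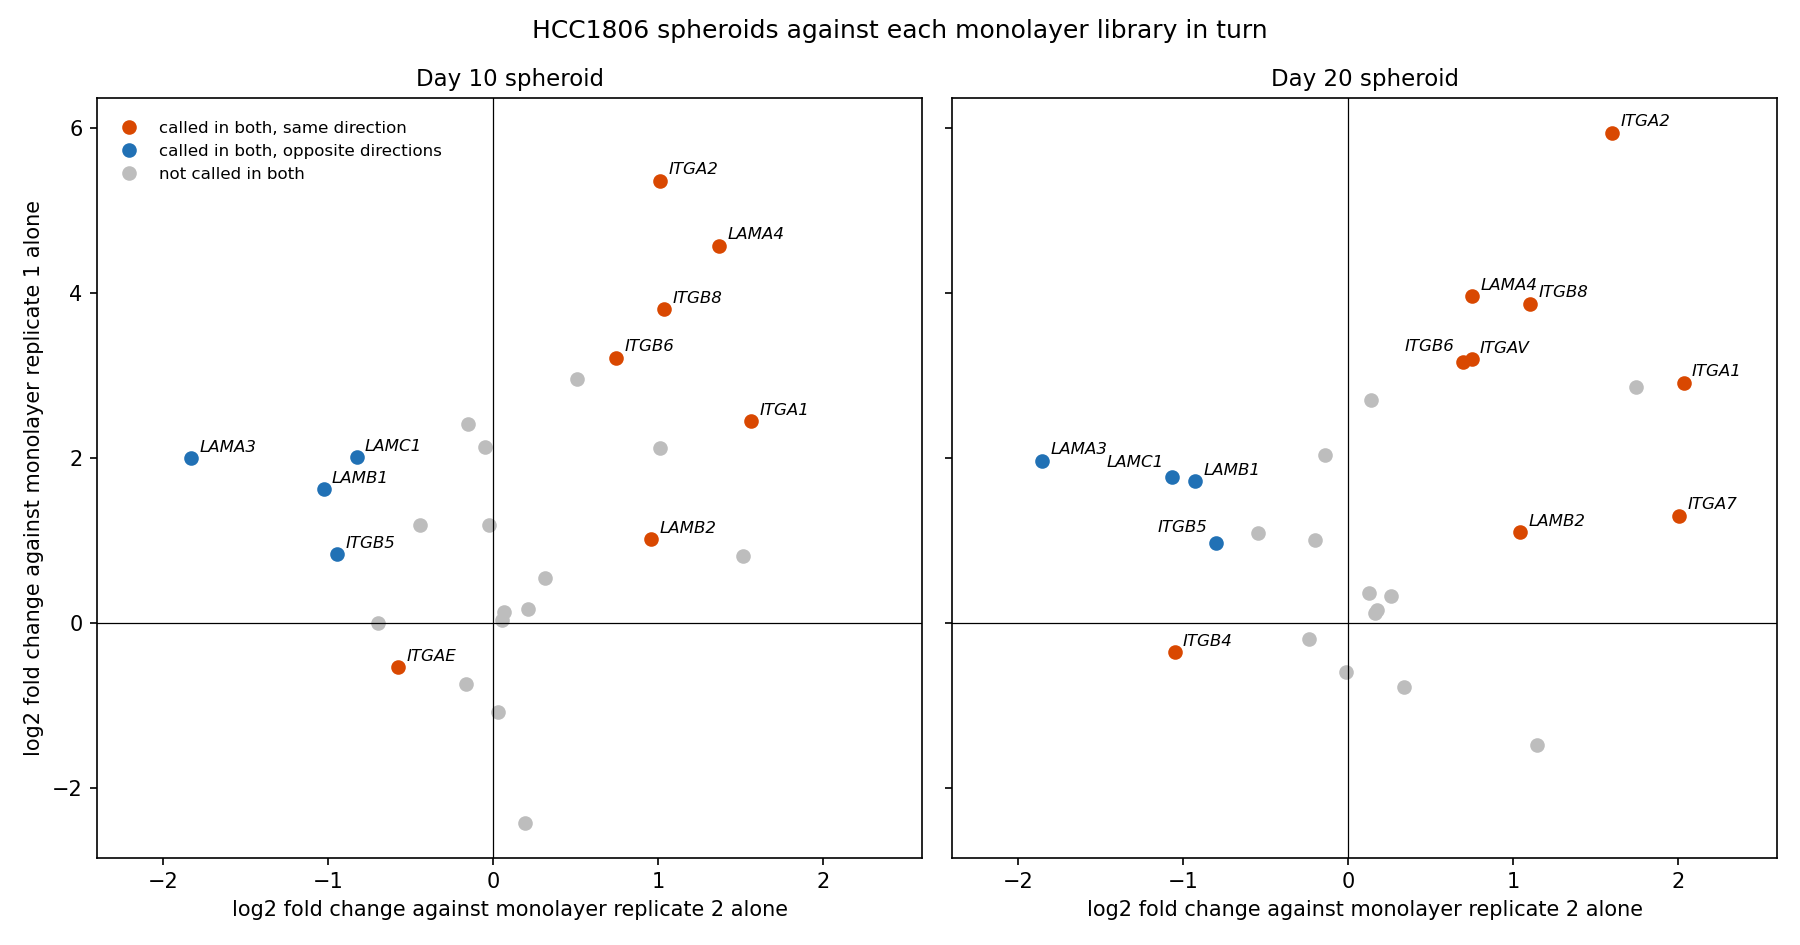
Each point is 1 of 26 members with counts in both HCC1806 monolayer libraries; x is the log2 fold change of the spheroids over monolayer replicate 2 alone and y that over replicate 1 alone, at day 10 (left) and day 20 (right). Orange points were called in both in the same direction, and the blue points (LAMA3, LAMC1, LAMB1 and ITGB5) lie at negative x and positive y.

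Of the related gene lists in HCC1806, with both monolayers in the fit, the basement membrane genes gave 4 called higher and 0 lower at day 10 and 3 and 0 at day 20. COL4A4, a collagen IV chain, rose by 3.90 ± 0.45 (adjusted p = 0.00310) at day 10, COL18A1 by 1.17 and AGRN, which links laminin to dystroglycan, by 0.90. The other integrin ligands gave 3 higher and 0 lower at each day, among them LTBP1 (2.28 at day 10), which stores latent TGF-β in the matrix, and NPNT (1.81). Of the hemidesmosome genes 1 was called higher at each day, SDC1, a syndecan, at 0.85 ± 0.18 at day 10 (adjusted p = 0.0236), and of the focal adhesion genes 1 was called lower at day 10 and 0 at day 20.

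From day 10 to day 20 in HCC1806 spheroids, 2 of 33 members (6.06%) were called, beside 6.8% of all genes (3.2% higher and 3.6% lower). The count is therefore not read as a trait of the members. ITGB4 went from 158 and 142 CPM/kb to 126 and 109 and fell by 0.34 ± 0.09 (adjusted p = 0.0404), while ITGA6 went from 156 and 152 to 195 and 182 and rose by 0.30 ± 0.08 (adjusted p = 0.0489). The 2 chains of α6β4 were thus called in opposite directions, with no overlap between days for either. Of all genes, 22.8% were higher and 27.1% lower at day 20 with no overlap, so its absence does not set these chains apart. With a stricter count filter the fall of ITGB4 was not called, and with median-of-ratios scaling the rise of ITGA6 was not called. Over the same days the 5 basal or squamous marker genes summed to 3882 and 4281 CPM at day 10 and 7507 and 8043 at day 20, and the 6 epithelial genes to 3933 and 4293, then 2937 and 3131; their part in the change of these chains was not tested. The call was lost without each library in turn for ITGA6 (adjusted p = 0.0983 to 0.269), and for ITGB4 in each case other than without day 20 replicate 1 (0.0751 to 0.319). LAMB4 (2.06 ± 0.59, adjusted p = 0.0532) and LAMA4 (-0.61, adjusted p = 0.123) were not called. BCAM, the Lutheran receptor for LAMA5 laminins, rose by 0.67 ± 0.07 (adjusted p = 6.19e-05), and NTN4 fell by 0.94 ± 0.14.

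Whether the spheroid effect differed between the lines was tested as an interaction. By edgeR's quasi-likelihood test 0 members were called at either day, beside 1.35% of all genes at day 10 and 2.77% at day 20. At an unadjusted p below 0.05 there were 4 and 6, and DESeq2 called 3 and 4, beside 10.2% and 11.6% of all genes. Without HCC1806 monolayer replicate 1 the counts were 11 at day 10 and 12 at day 20, beside 28.1% and 29.6% of all genes, and without replicate 2 they were 15 and 14, beside 44.8% and 45.4%. The count of 0 therefore holds only with both monolayers in the fit. LAMB2 and LAMB3 were above both monolayers in both lines at both days. ITGA2 and ITGB6 were above both monolayers in HCC1806 and below both in BT474 at both days, and ITGA6 and LAMA5 so at day 20, but the difference was not called for any of them (adjusted p = 0.339 for ITGA2 and 0.226 for ITGB6 at day 10; 0.205, 0.207, 0.506 and 0.0945 for ITGA2, ITGB6, ITGA6 and LAMA5 at day 20). Among the related genes the difference was called, among others, for COL4A4 at both days (3.77 and 5.31), NPNT at both days (3.04 and 2.58) and LTBP1 at day 10 (2.34).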

How the data were processed

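RNA of 16 libraries was sequenced as poly(A)-selected read pairs of 150 bp, per the labels. Per the submitters' processing notes the authors used HISAT2 2.2.1, featureCounts 2.0.6 and GRCh38. Strand setting and multi-mapping rule are not given in the sources used here, so the 18 members that overlap another gene's exons on the opposite strand may hold some of its reads. The deposited counts are whole numbers per gene with no rows that name no gene. The deposited FPKM values, which the authors made from the same reads, served for 2 alternatives alone. All 36 members matched GENCODE 29 by ID, symbol, position and exon length. Low counts were mostly even (1.60 to 2.13 even for each odd), so counting intervals and floors, which take each count as independent, are too narrow and low if both mates of a pair were counted.

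Tests used R 4.3.3 and edgeR 4.0.16 on the counts: TMM scaling, filterByExpr (minimum count 10, total 15), robust quasi-likelihood F tests, Benjamini-Hochberg adjustment over all genes tested. Comparisons with the HCC1806 monolayers and the line differences came from a fit of the 12 HCC1806 and BT474 libraries, the other spheroid comparisons from 10 libraries without those monolayers, and the line test from the 8 monolayers. The day 10 and day 20 comparisons share their monolayers. On simulated counts with equal spread, BT474 day 10 against monolayer recovered 82% of 2-fold and 96% of 4-fold changes (19579 genes run). HCC1806 day 20 against day 10 recovered 75% and 95% (19593 genes), and HCC1806 day 10 against monolayer 0% and 30% (20075 genes). The line test recovered 0% of either size (18807 genes). Each simulated group had the spread of its whole fit, and 1 group was changed. On the deposited counts the line test called 33.9% of all genes, so the simulated shares do not give its power there.

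The members, the gene lists, the fits and the naming rule were chosen with earlier results of these data known. The naming rule gives fold changes for called members and for at most 4 called genes per list. Uncalled members are given where groups do not overlap and the log2 fold change is 1 or more, or where a partner chain was called. Outside this rule, fold changes of uncalled LAMB2 in BT474 and LAMA4 in HCC1806 between day 10 and day 20 are also given. Where a group had 0 to 3 counts a bound or an exact interval replaces the fitted fold change. Alternatives were DESeq2 1.42.0, limma 3.58.1 on log2(FPKM + 1) and log2(FPKM + 0.1), median-of-ratios scaling and the count filter dropped or raised to 50. Others were other sets of libraries, a replicate block and leaving out each library of the groups compared. Figures used matplotlib 3.10.9.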

Additional observations from a re-analysis of the deposited data

How the results depend on the processing

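Over the 11 comparisons and their settings, 157 alternative counts of called members were computed; 102 were within 1.5 times the reported count and 55 were not. For the single members named with a test, 1845 values were recomputed: 1551 kept direction and side of the threshold, 216 lost the call, 78 gained one and 0 changed sign. This set leaves out the 6 members whose called sign depends on the HCC1806 monolayer used, as they are not called with both. Shares of all genes called in the same fit are given in brackets. For HCC1806 day 10 against monolayer the count was 11 with no filter (9.3%), 5 with DESeq2 (20.7%), 3 and 2 with limma on log2 FPKM with 1 and 0.1 added (8.32% and 7.71%), 0 in a fit of the line alone (0%), and 0 to 21 leaving out a library (0.674% to 52.8%). For day 20 against monolayer it was 10 with no filter (10.7%), 8 with DESeq2 (22.4%), 6 with limma and 1 added (10.5%), 1 with all 16 libraries (4.96%), 0 with the line alone (0.0106%), and 1 to 22 leaving out a library (1.43% to 53%). For HCC1806 day 20 against day 10 it was 1 with median-of-ratios scaling (6.91%), 4 with no filter (5.73%), 1 and 0 with limma (5.19% and 3.22%), 0 with 16 libraries, 12 libraries or the line alone (0.00461%, 0% and 0%), and 0 to 1 leaving out a library (2.32% to 3.51%). For BT474 against monolayer at day 10 and day 20 it was 4 and 6 with limma and 1 added (5.87% and 7.37%), 7 at day 20 with 0.1 added (7.23%), 0 and 0 with 12 libraries (0.129% and 0.234%) or 16 (0.0415% and 0.0507%), and 5 to 11 and 6 to 12 leaving out a library (4.16% to 13.3% and 5.38% to 15.3%). For BT474 day 20 against day 10 it was 2 with no filter (1.05%), 1 with DESeq2 (1.32%) and 0 in each fit without a library (0.0182% to 0.127%). For the line difference at day 10 and day 20 it was 5 and 5 with no filter (3.79% and 4.82%), 3 and 4 with DESeq2 (10.2% and 11.6%), at day 20 1 with a stricter filter (4.96%) and 2 and 1 with limma (4.04% and 3.07%), and 0 to 15 and 0 to 14 leaving out a library (0.0356% to 44.8% and 0.0489% to 45.4%). HCC1806 against BT474 spheroids gave 27 to 30 at day 10 and 27 to 29 at day 20 leaving out a library (58.8% to 61.4% and 60.3% to 62.1%), and 19 at day 20 with 12 libraries (43.6%). The 4-line test gave 7 with limma and 1 added (18.7%), 12 to 19 leaving out a library (14.4% to 49.5%), and 19 without the 2 monolayer libraries of high mitochondrial share (53.5%), chosen after seeing the data. The cause of these shifts was not tested.

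The replicate numbers do not pair the samples. Over 15 pairs of the HCC1806 and BT474 groups the correlation of same-numbered deviations ran from -0.206 to 0.200, and 3 exceeded 0.1. Over the 28 pairs of all 8 groups it ran from -0.590 to 0.200, and 4 exceeded 0.1. The lowest value was that between the HCC1806 and ZR-75-30 monolayers. The library of high mitochondrial share was replicate 1 in HCC1806 and replicate 2 in ZR-75-30. With the replicate number as a block, 1 and 2 members were called for HCC1806 against monolayer at day 10 and day 20, 9 and 11 for BT474, 2 for HCC1806 and 0 for BT474 day 20 against day 10, 30 and 28 for HCC1806 against BT474, 0 and 0 for the line differences and 12 for the 4-line test.

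Genes below 0.0458 to 0.139 CPM, depending on the library, cannot be told from 0, and 2 libraries a group limit every test.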
